A study of Mus musculus with 18 samples.

Results

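The collagen genes of the mouse were followed in dorsal root ganglia, the clusters of sensory nerve cell bodies beside the spinal cord, of mice with myeloma in the femur. The set holds every protein-coding gene whose symbol reads Col, a number, a and a number (Col1a1, Col4a2 and so on). It has 44 members among 48529 genes with summed reads, and 39 of the 44 had enough reads to be among the 15774 genes tested. Membership follows from the gene symbol alone.

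Both groups were male mice of the strain C57BL/KaLwRijHsd, which accepts grafts of the 5T myeloma lines, aged 5 to 7 weeks. The 9 MM mice received 5TGM1-GFP cells, a mouse myeloma line carrying green fluorescent protein, inside a femur. The 9 SHAM mice received vehicle by the same route, so that surgery and injection were shared by both groups. Whole lumbar ganglia (L2, L3 and L4) of the injected side were frozen at day 24 after surgery. The series design speaks of 9 mice per group, so a library stands for 1 mouse. Whether a library pools the ganglia of all these levels is not stated. A whole ganglion holds neurons, glia, vessels, fibroblasts of its capsule and blood cells, and the labels give no dissociation or sorting of cells.

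Collagens are proteins of the extracellular matrix in which chains wind into a triple helix. Fibrillar collagens make the ropes of connective tissue, type IV makes the sheet within basement membranes, and type VI makes beaded filaments between them. In peripheral nerve and ganglia these proteins are known from the connective tissue sheaths, from vessel walls and from the basal lamina around glial cells. Fibroblasts are the main source of fibrillar and type VI chains, while endothelial cells and Schwann cells make much of type IV.

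Libraries held 19218249 to 21771206 estimated reads. Levels are given as CPM, counts of reads scaled to a common library total with TMM factors, for comparing libraries, or as TPM, transcripts scaled to a common total, which accounts for length and is the unit for comparing genes. The tissue label was borne out by its markers: the summed level of 8 sensory neuron markers was 4567 to 6390 CPM in SHAM and 2677 to 6375 CPM in MM, and that of 6 satellite glia markers was 2848 to 3847 CPM and 2272 to 3551 CPM. Myeloma transcripts were uneven in MM: Ighg2b, an immunoglobulin heavy chain gene, ranged from 11.7 CPM in MM2 to 4374 CPM in MM9, with 2334 CPM in MM8 and 2197 CPM in MM5. In SHAM it reached 16.4 CPM at most, so that MM2 lay within the SHAM range. Skeletal muscle markers marked other libraries: Acta1, the muscle actin, was at 5249 CPM in SHAM8, 1037 CPM in SHAM7 and 544 CPM in MM6, and at 1.07 CPM in SHAM1.

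No collagen gene passed the threshold in either direction. Of 39 tested, 0 were called higher and 0 lower in MM at an edgeR adjusted p under 0.05, while the same test called 2.75% of all tested genes higher and 0.241% lower. At an unadjusted p under 0.05 the edgeR test held 1 collagen gene higher (Col20a1) and 2 lower (Col24a1 and Col27a1), beside 13.9% and 8.6% of all tested genes. DESeq2, run as another test, called 0 collagen genes higher (5.73% of its 19749 genes) and 1 lower, Col24a1 (1.25% of its genes). For every tested member the ranges of the 9 MM and the 9 SHAM libraries overlapped. The share of all tested genes with such an overlap is not given here, so it does not set the collagens apart.

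The direction of the members as a set changed with the libraries left out. Log2 fold changes of MM over SHAM were positive for 25 members and negative for 14, with a median of 0.11 (all tested genes, -0.004). Over all tested genes 48.85% were positive in this fit, and that share is not given for the fits with libraries left out. Without MM5, the library with the highest fibroblast marker level, 15 of 39 were positive and the median was -0.08. Without MM5, MM8 and MM9, the libraries richest in Ighg2b, 5 of 39 were positive and the median was -0.21. Without SHAM6, 28 were positive and the median was 0.30. Leaving out MM5 and SHAM6 together gave 24 of 39 positive and a median of 0.06.

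The 95% intervals show which sizes of difference the data could hold. For 32 of the 39 members the interval lay within a 2-fold change both ways, and for 9 it lay within 1.5-fold: Col28a1, Col5a3, Col23a1, Col11a1, Col9a2, Col25a1, Col27a1, Col13a1 and Col10a1. Members that left room for more than a 3-fold change were Col22a1, Col20a1, Col6a5 and Col8a1. The interval of Col8a1, a short chain collagen of vessel walls and of the cornea, ran from 0.898-fold to 3.36-fold.

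**Figure D1:**
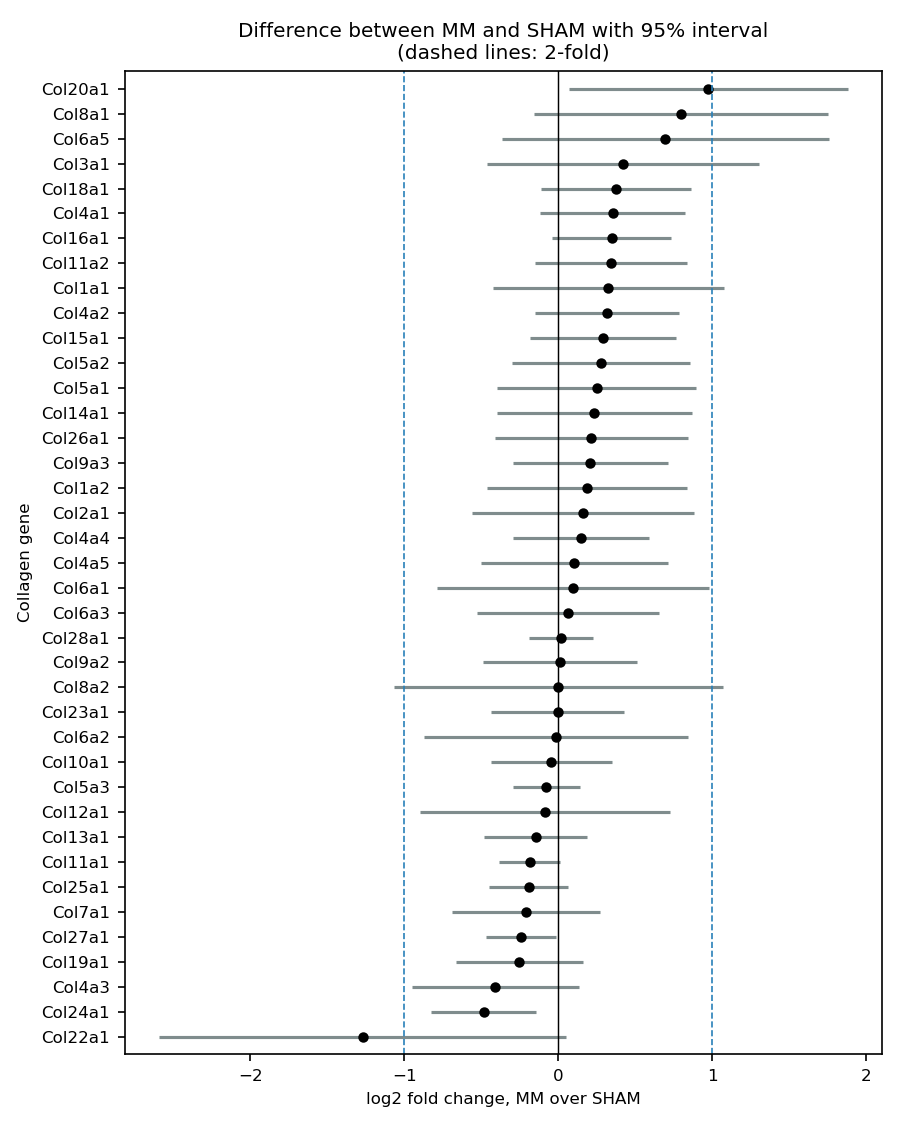
Log2 fold change of MM over SHAM (points) with its 95% interval (lines) for the 39 tested collagen genes, ordered by size, with dashed lines at a 2-fold change. Points run from -1.27 (Col22a1) to 0.97 (Col20a1), and no gene passed the adjusted threshold.

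The family was a small part of each library and was led by few chains. As a share of the TMM-scaled library total, collagen reads made up 0.171% ± 0.0681 (SD, n = 9) in SHAM, from 0.101% to 0.317%. In MM they made up 0.199% ± 0.102 (SD, n = 9), from 0.0891% to 0.442%. The highest share in each group was that of MM5 and SHAM6, and the lowest that of MM3 and SHAM8. By TPM in SHAM, the 11 fibrillar genes held 47.9% of the family, the 6 type IV genes 16.3%, the 9 FACIT genes (fibril-associated collagens with interrupted helices) 9.38% and the 6 type VI genes 8.18%. The pair of multiplexins, Col15a1 and Col18a1, held 6.69%, and the 4 transmembrane collagens 3.55%.

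By TPM in SHAM (means ± SD, n = 9), Col1a2 was highest at 113.6 ± 56.2. It was followed by Col4a1 at 64.5 ± 18.8, Col3a1 at 54.8 ± 33.9 and Col1a1 at 54.5 ± 30.1, which lie within each other's spread. Col28a1 came next at 32.0 ± 4.51, ahead of Col4a2 (29.8 ± 9.15), Col15a1 (27.5 ± 6.96) and Col5a3 (25.0 ± 4.29). Col28a1, with von Willebrand A domains beside a short collagen helix, is known as a collagen of peripheral nerve, where it lies around glial cells. At the other end, 5 members had too few reads to test: Col17a1, Col6a4, Col4a6, Col6a6 and Col9a1 had 25 reads or fewer in every library. Col9a1, which joins the cartilage collagen fibril, had 0 to 4 reads per library and stayed at 0.0374 TPM in SHAM.

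**Figure D2:**
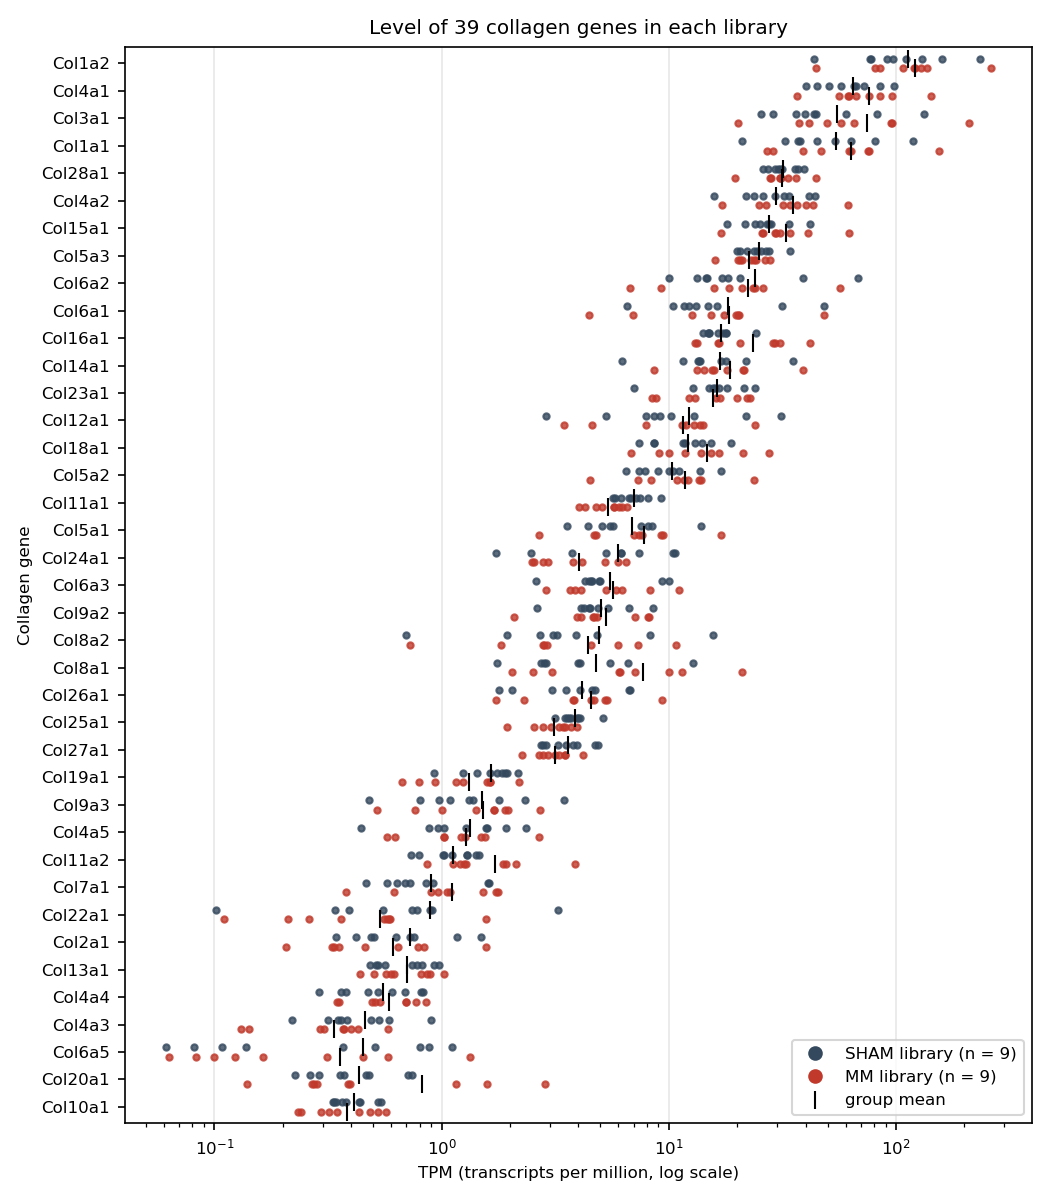
TPM of the 39 tested collagen genes in each SHAM (dark) and MM (red) library on a log axis, with group means as black ticks. Levels span from Col1a2 (113.6 TPM in SHAM) to Col10a1 (0.410 TPM), and the points of the groups overlap for every gene shown.

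TPM of some members depends on short transcript models. In Col24a1, 42.0% of SHAM TPM came from transcripts under 1000 bases, and its rank moved from 19 to 26 without them. The share was 72.1% in Col6a5, 29.5% in Col16a1 and 20.1% in Col6a3, and 5.57% in Col28a1. Col1a2, Col4a1 and Col28a1 kept ranks 1, 2 and 5 without such transcripts.

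Stretches of 250 bases before the start site are shown for 5 members, chosen to set genes that followed the fibroblast markers (Col3a1, Col6a2) beside genes that did not rise with them (Col28a1, Col24a1). Col5a3 lies between: its relation passed by Pearson (r = 0.60, adjusted permutation p = 0.031) and missed by Spearman (rho = 0.51, adjusted permutation p = 0.083). They run 5′ to 3′ on the gene's strand, from RefSeq with build GRCm38.p6. Capitals mark 3 motifs searched on both strands. The TATA box was searched as TATAAA. The CCAAT box was searched by the letters of its name. The GC box was searched as GGGCGG. On the other strand it reads CCGCCC.
Col3a1 (chr1:45311288-45311537, plus strand): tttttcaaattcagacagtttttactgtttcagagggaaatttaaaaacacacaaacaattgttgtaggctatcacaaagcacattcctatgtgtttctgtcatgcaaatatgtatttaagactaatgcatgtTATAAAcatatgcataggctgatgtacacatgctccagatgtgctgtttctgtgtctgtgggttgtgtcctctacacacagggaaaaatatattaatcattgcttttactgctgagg
Col6a2 (chr10:76623631-76623880, minus strand): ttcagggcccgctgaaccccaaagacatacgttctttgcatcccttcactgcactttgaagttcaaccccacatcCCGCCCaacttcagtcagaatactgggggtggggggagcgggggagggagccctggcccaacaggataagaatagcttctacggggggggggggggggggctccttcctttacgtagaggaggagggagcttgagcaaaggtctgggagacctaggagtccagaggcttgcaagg
Col28a1 (chr6:8192618-8192867, minus strand): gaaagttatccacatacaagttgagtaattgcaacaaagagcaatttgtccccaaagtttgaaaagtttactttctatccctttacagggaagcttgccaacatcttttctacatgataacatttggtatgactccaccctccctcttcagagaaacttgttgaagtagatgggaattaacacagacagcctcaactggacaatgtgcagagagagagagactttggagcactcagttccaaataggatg
Col24a1 (chr3:145292222-145292471, plus strand): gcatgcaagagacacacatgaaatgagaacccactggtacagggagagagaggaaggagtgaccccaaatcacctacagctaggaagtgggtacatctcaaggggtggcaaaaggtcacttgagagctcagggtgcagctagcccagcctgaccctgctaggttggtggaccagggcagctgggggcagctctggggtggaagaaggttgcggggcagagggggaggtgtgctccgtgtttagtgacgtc
Col5a3 (chr9:20815068-20815317, minus strand): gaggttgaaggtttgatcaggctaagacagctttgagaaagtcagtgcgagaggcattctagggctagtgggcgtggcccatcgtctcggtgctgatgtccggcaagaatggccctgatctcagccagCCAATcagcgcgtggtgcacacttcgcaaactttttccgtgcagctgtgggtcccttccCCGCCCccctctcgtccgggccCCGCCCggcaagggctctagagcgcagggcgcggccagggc

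In these windows Col3a1 held a TATA box 117 bases before the start, Col6a2 a GC box on the other strand at 175 bases, and Col5a3 a CCAAT box at 122 bases and GC boxes on the other strand at 41 and 63 bases. Col28a1 and Col24a1 held none of these letters in this window. RefSeq promoters were matched for 35 of the 44 members. For 32 of the 35 the 30 bases after the start were found in a transcript of the same gene. A GC box was in 21 of the 35 (60%) and in 32.9% of 27025 genes. A CCAAT box was in 12 (34.3%) against 34.5%, and a TATA box in 5 (14.3%) against 13.0%. The 27025 genes were not filtered by gene type, while the members are all protein-coding, so the sets may not be alike. None of the motifs was given a test, and a match describes letters only.

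Type I and type III collagen, the main fibril formers, had no difference beyond their spread. Col1a1 was at 80.1, 142 and 407 CPM in SHAM (lowest, median, highest) and at 92.8, 207 and 591 CPM in MM. Its highest libraries were SHAM6 and MM5, and the SHAM median was exceeded in 6 of 9 MM mice. The log2 fold change was 0.33 ± 0.36 (SE; edgeR adjusted p = 0.606), and -0.30 without MM5, MM8 and MM9. Col1a2, the partner chain, was at 145, 256 and 689 CPM in SHAM and 144, 349 and 864 CPM in MM. Its log2 fold change was 0.19 ± 0.31 (edgeR adjusted p = 0.743) and turned to -0.08 without MM5. Col3a1, the single chain of type III, was at 80.5, 117 and 401 CPM in SHAM and 57.3, 155 and 687 CPM in MM. Its log2 fold change of 0.42 ± 0.42 (edgeR adjusted p = 0.570) turned to -0.02 without MM5, and Col1a1 was at 0.008 without that library. With SHAM6 left out as well as MM5, the signs stayed positive, at 0.14 for Col1a2, 0.26 for Col3a1 and 0.25 for Col1a1. Levels in bulk tissue cannot tell fewer cells of a type from less RNA per cell.

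The type I chains varied together. Per length, the Col1a1 to Col1a2 TPM ratio was 0.472 ± 0.0355 (SD, n = 9) in SHAM and 0.520 ± 0.120 in MM, where MM9 had the highest at 0.699. Deviations of log2 CPM from the group means were correlated for Col1a1 and Col1a2 over 18 libraries (Pearson r = 0.96, adjusted p = 1.4e-05; Spearman rho = 0.95, adjusted p = 1.8e-05; permutation tests). The raw permutation p was 1e-05, the smallest that 100000 resamples can give. Leaving out the libraries with the most extreme Col1a1 gave r = 0.91, and r was 0.93 within MM and 0.99 within SHAM. This was 1 of 11 gene pairs examined, over which p-values were adjusted; a 12th planned pair, Col4a5 with Col4a6, was not computed since Col4a6 was not tested.

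Col1a1 and Col3a1 gave r = 0.97 and rho = 0.98 (adjusted permutation p = 1.4e-05 and 1.8e-05), with r = 0.94 without the extreme libraries. The type V chains Col5a1 and Col5a2, which start fibril assembly with type I, gave r = 0.96 and rho = 0.93 (adjusted permutation p = 1.4e-05 and 1.8e-05), and r = 0.92 without the extremes. Col1a1 and Dcn, the fibril-binding proteoglycan decorin of fibroblasts, gave r = 0.89 and rho = 0.80 (adjusted permutation p = 1.4e-05 and 0.00038), and r = 0.79 without the extremes. In the RefSeq gene order Col3a1 and Col5a2 are neighbours on chromosome 1, and Col6a1 and Col6a2 on chromosome 10.

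Among the other fibrillar genes, Col5a3, Col11a1 and Col27a1 varied less between mice than most of the family. Their coefficients of variation (SD over mean) in SHAM were 14.2%, 11.4% and 15.3%, above the median of 10.7% over all tested genes. Col5a3, a further type V chain, lay at 70.5, 84.7 and 111 CPM in SHAM and 60.2, 79.3 and 110 CPM in MM, with a log2 fold change of -0.08 ± 0.10 (edgeR adjusted p = 0.681). Its interval of 0.815-fold to 1.10-fold left no room for a 1.5-fold change. Col11a1, a chain of the thin fibrils of cartilage, was at 17.9, 20.6 and 25.6 CPM in SHAM and 14.8, 18.3 and 26.0 CPM in MM. Its log2 fold change was -0.19 ± 0.10 (edgeR adjusted p = 0.251), and 1 of 9 MM libraries, MM5, lay above the SHAM median in the direction opposite to the rest. Col27a1, a fibrillar collagen known from cartilage, was at 9.81, 13.4 and 14.9 CPM in SHAM and 8.68, 10.3 and 14.8 CPM in MM. The log2 fold change of Col27a1 was -0.24 ± 0.11 (edgeR adjusted p = 0.202), and again MM5 alone lay above the SHAM median.

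Col24a1, a minor fibrillar collagen known from developing bone and cornea, had the lowest p of the family. Its level was 7.19, 12.8 and 19.9 CPM in SHAM and 6.80, 9.25 and 11.4 CPM in MM. All 9 MM libraries lay below the SHAM median, while SHAM6 (7.19), SHAM7 (8.599) and SHAM4 (10.3 CPM) lay within the MM range. The log2 fold change was -0.48 ± 0.16, a fold of 0.715 with a 95% interval from 0.565 to 0.905 (edgeR adjusted p = 0.0992). The gene was thus not called, but it stood near the threshold. Of 29 alternatives, 3 put it past: DESeq2 (adjusted p = 0.0491), the edgeR fit without SHAM6 (adjusted p = 0.0384) and the edgeR fit with the fibroblast marker level as a term (adjusted p = 0.0481). The background of lower calls in the last 2 fits was 0.876% and 3.11% of tested genes. Over all alternatives the adjusted p ranged from 0.0384 to 0.49 and the log2 fold change from -0.56 to -0.38. Across libraries Col24a1 was inversely related to the fibroblast markers (r = -0.62 and rho = -0.59, adjusted permutation p = 0.0099 and 0.028). The relation weakened to r = -0.32 without the extreme libraries. With those libraries kept, r was -0.63 within MM and -0.71 within SHAM.

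The remaining fibrillar genes, Col2a1, Col5a1, Col5a2 and Col11a2, had log2 fold changes between 0.16 and 0.34 and edgeR adjusted p from 0.390 to 0.806. Col2a1, the cartilage collagen, was at 0.725 TPM ± 0.376 (SD, n = 9) in SHAM. Col11a2, a cartilage fibril chain, had its highest MM libraries in MM5 (8.10), MM9 (7.47) and MM8 (6.51 CPM), above the SHAM maximum of 4.52 CPM. The other 6 MM libraries of Col11a2 lay at 2.22 to 4.43 CPM, within or just under the SHAM range.

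Type IV collagen of basement membranes had no call. Col4a1 was at 119, 197 and 290 CPM in SHAM and 124, 222 and 488 CPM in MM, and Col4a2 at 65.9, 104 and 165 CPM in SHAM and 67.4, 131 and 258 CPM in MM. For both chains the SHAM median was exceeded in 6 of 9 MM mice, and MM5 was the highest. Log2 fold changes were 0.35 ± 0.22 for Col4a1 (edgeR adjusted p = 0.358) and 0.32 ± 0.22 for Col4a2 (edgeR adjusted p = 0.406). With all libraries the upper bounds of the intervals were 1.77-fold and 1.72-fold. Without MM5 the log2 fold changes were 0.165 and 0.143.

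The Col4a1 to Col4a2 TPM ratio was 2.19 ± 0.220 (SD, n = 9) in SHAM and 2.15 ± 0.137 in MM. Col4a1 and Col4a2, neighbours on chromosome 8, gave r = 0.99 and rho = 0.99 (adjusted permutation p = 1.4e-05 and 1.8e-05), and r = 0.98 without the extreme libraries. Col4a1 and Pecam1, an adhesion molecule of endothelial cells, gave r = 0.85 and rho = 0.80 (adjusted permutation p = 2.4e-05 and 0.00015), and r = 0.76 without the extremes.

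The chains of the kidney and lung type of basement membrane were scarce per length. Col4a5 was at 1.33 TPM ± 0.583, Col4a4 at 0.552 ± 0.198 and Col4a3 at 0.460 ± 0.201 in SHAM (SD, n = 9). Col4a3 was at 1.10, 2.02 and 3.57 CPM in SHAM and 0.757, 1.57 and 3.26 CPM in MM, with a log2 fold change of -0.41 ± 0.26 (edgeR adjusted p = 0.357), and 1 of 9 MM libraries above the SHAM median. Its partner Col4a4 had a log2 fold change of 0.15 ± 0.21 (edgeR adjusted p = 0.699), from 1.91 to 4.84 CPM in SHAM and 2.24 to 5.73 CPM in MM. Col4a3 and Col4a4 gave r = 0.66 and rho = 0.57 (adjusted permutation p = 0.0039 and 0.020), r = 0.52 without the extremes, 0.89 within MM and 0.42 within SHAM. Col4a5 was at 1.70, 3.73 and 7.67 CPM in SHAM and 2.002, 3.79 and 9.69 CPM in MM. Its log2 fold change was 0.11 ± 0.29 (edgeR adjusted p = 0.852), and -0.15 without MM5. Col4a6, of which 1 to 25 reads were seen per library, was not tested.

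Among the 10 most abundant members, Col6a2 and Col6a1 varied most between SHAM mice. Col6a1 was at 16.9, 28.9 and 111 CPM in SHAM and 10.97, 44.7 and 126 CPM in MM. Col6a2 was at 25.2, 36.6 and 153 CPM in SHAM and 16.3, 50.8 and 144 CPM in MM. SHAM6 and MM5 were the highest libraries of both chains, and MM3 and SHAM8 the lowest. The coefficient of variation in SHAM was 72.9% for Col6a1 and 78.3% for Col6a2.

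With that spread, Col6a1 had a log2 fold change of 0.10 ± 0.42 (edgeR adjusted p = 0.910) and Col6a2 of -0.01 ± 0.41 (edgeR adjusted p = 0.989). Their signs turned with single libraries: Col6a1 was at -0.28 without MM5, and Col6a2 at 0.37 without SHAM6. Col6a3, the large chain that completes the type VI trimer, was at 13.5, 19.2 and 44.9 CPM in SHAM and 10.4, 21.5 and 53.7 CPM in MM. Its log2 fold change was 0.06 ± 0.28 (edgeR adjusted p = 0.911), and -0.17 without MM5. Col6a1 and Col6a2 gave r = 0.99 and rho = 0.99 (adjusted permutation p = 1.4e-05 and 1.8e-05), also r = 0.99 without the extremes. Col6a1 and Col6a3 gave r = 0.92 and rho = 0.91 (adjusted permutation p = 1.4e-05 and 1.8e-05), and r = 0.85 without the extremes. Per length the Col6a1 to Col6a2 TPM ratio was 0.775 ± 0.0579 (SD, n = 9) in SHAM, while Col6a3 stood at 0.356 ± 0.150 of Col6a1.

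The other type VI chains were rare. Col6a5 was at 0.371, 0.672 and 1.39 CPM in SHAM and 0.335, 0.587 and 3.96 CPM in MM, from 7 to 85 reads per library. MM5 (3.96) and MM9 (3.63 CPM) lay far above the other MM libraries, which reached 0.851 CPM. Its log2 fold change of 0.69 ± 0.51 (edgeR adjusted p = 0.421) was -0.07 with offsets from transcript lengths and -0.58 without MM5, MM8 and MM9. Col6a4 and Col6a6 had at most 13 and 12 reads in any library and were not tested.

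Collagen XXVIII was the steadiest member in the control mice. Col28a1 was at 65.1, 69.0 and 80.6 CPM in SHAM and 47.3, 69.8 and 98.1 CPM in MM, lowest in MM3 and highest in MM8. Its coefficient of variation was 8.36% in SHAM and 19.7% in MM, where the medians over the family were 33.5% and 47.0% and those over all tested genes 10.7% and 16.4%. The log2 fold change was 0.02 ± 0.10 (edgeR adjusted p = 0.926), within 0.878-fold to 1.17-fold, and its sign turned under several alternatives while staying within 0.1 of 0.

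Both multiplexins, collagens of the basement membrane zone, had MM5 as the highest MM library. Col15a1 was at 37.5, 53.9 and 84.2 CPM in SHAM and 32.1, 58.5 and 148 CPM in MM, with a log2 fold change of 0.29 ± 0.23 (edgeR adjusted p = 0.456) and -0.06 without MM5, MM8 and MM9. Col18a1, the source of the fragment endostatin, had a log2 fold change of 0.38 ± 0.23 (edgeR adjusted p = 0.339). It ranged from 22.9 to 44.5 CPM in SHAM and from 21.4 to 84.9 CPM in MM.

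FACIT collagens, which coat fibrils or link them to other structures, held the widest differences. Col16a1 was at 28.9, 32.2 and 39.4 CPM in SHAM and 23.8, 31.2 and 69.8 CPM in MM. The MM libraries above the SHAM maximum were MM9 (69.8), MM5 (56.6), MM8 (56.4) and MM7 (49.0 CPM), while the other 5 lay at 31.2 CPM or less. The log2 fold change was 0.35 ± 0.18 (edgeR adjusted p = 0.271), and -0.04 without MM5, MM8 and MM9. Col12a1 and Col14a1, which bind type I fibrils, had log2 fold changes of -0.09 ± 0.39 and 0.23 ± 0.30 (edgeR adjusted p = 0.911 and 0.665).

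Col20a1, a scarce FACIT chain, had the second lowest p. Its level was 0.586, 0.767 and 1.43 CPM in SHAM and 0.394, 0.986 and 4.64 CPM in MM, from 8 to 92 reads per library. MM9 (4.64), MM5 (3.45) and MM8 (3.18 CPM) lay above all SHAM libraries, and the other 6 MM libraries lay at 0.394 to 1.05 CPM. The log2 fold change was 0.97 ± 0.43 (edgeR adjusted p = 0.196), and -0.26 without those libraries. Ighg2b was highest in these libraries too, and their plasma and myeloma cell marker levels (mean log2 CPM) were 7.60, 6.75 and 6.91, against 1.94 to 4.99 in the other MM libraries. The macrophage marker level was also highest there, at 4.59 in MM9, 5.23 in MM5 and 4.20 in MM8, against 2.74 to 3.35 in the other MM libraries. Col20a1 was inversely related to the sensory neuron markers (r = -0.72 and rho = -0.84; adjusted permutation p = 0.011 and 0.0024; r = -0.81 without the extreme libraries). The part of any of these cells in the Col20a1 level was not tested.

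Col22a1, a FACIT chain of the junction between muscle and tendon, had the largest negative log2 fold change of the family, -1.27 ± 0.63 (edgeR adjusted p = 0.240). It was at 0.517, 1.56 and 16.3 CPM in SHAM and 0.537, 1.05 and 4.78 CPM in MM. SHAM8 (16.3), MM6 (4.78) and SHAM7 (4.70 CPM) stood apart, and every other library was at 2.01 CPM or less. Those were the libraries with the highest skeletal muscle marker level (10.65 in SHAM8, 8.34 in SHAM7 and 7.41 in MM6, mean log2 CPM), while the range over the others was -1.40 to 7.05. Without SHAM7 and SHAM8 the log2 fold change was 0.11. Across 18 libraries Col22a1 was related to the muscle level (r = 0.82 and rho = 0.68; adjusted permutation p = 0.00093 and 0.018), with r = 0.66 without the extremes, 0.67 within MM and 0.87 within SHAM. The part of muscle RNA in the Col22a1 level was not tested.

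**Figure D3:**
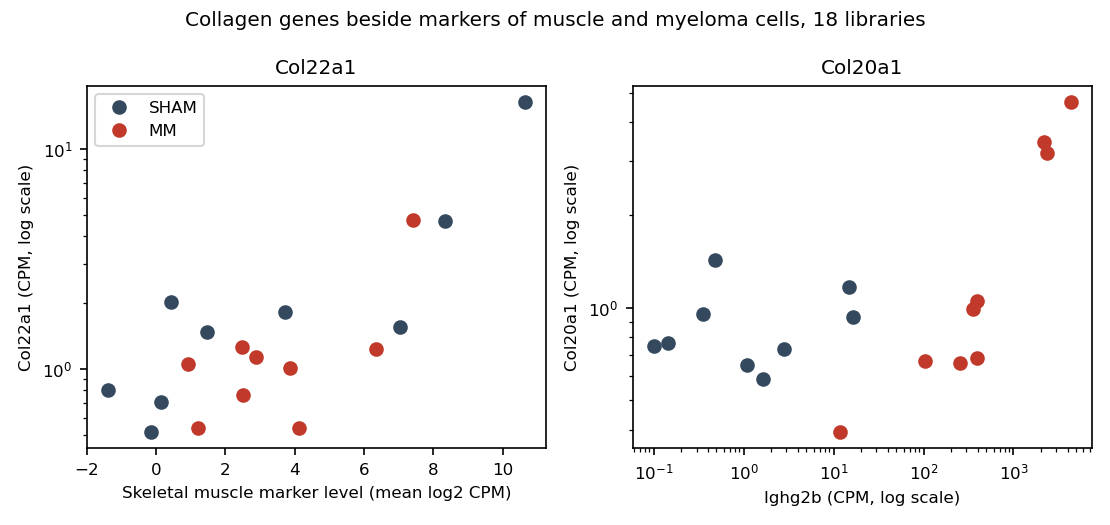
Left, Col22a1 (CPM, log axis) against the mean log2 CPM of skeletal muscle markers; right, Col20a1 (CPM, log axis) against Ighg2b (CPM, log axis), each point 1 of 18 libraries. SHAM8, SHAM7 and MM6 are the high points on the left, and MM9, MM5 and MM8 those on the right.

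Transmembrane collagens, which sit in the cell surface with the collagen part outside, had no call and small log2 fold changes. Col23a1 was at 16.3 TPM ± 4.88 (SD, n = 9) in SHAM and 15.6 ± 5.37 in MM, with a log2 fold change of -0.00 ± 0.21 (edgeR adjusted p = 0.993) within 0.739-fold to 1.35-fold. Col25a1, needed for motor axons to reach muscle in development, had a log2 fold change of -0.19 ± 0.12 (edgeR adjusted p = 0.361). Col13a1, known from the neuromuscular junction, was scarce at 14 to 33 reads per library, with a log2 fold change of -0.15 ± 0.16 (edgeR adjusted p = 0.602). Col17a1 of epithelial hemidesmosomes had at most 11 reads.

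Among the remaining members, none passed the threshold. Col7a1 of the skin's anchoring fibrils, Col10a1 of growth plate cartilage, Col8a2, Col9a2, Col9a3, Col19a1 and Col26a1 had log2 fold changes between -0.25 and 0.21 and edgeR adjusted p from 0.452 to 0.999. Col8a1 had 0.80 ± 0.45 (edgeR adjusted p = 0.304), at 5.73, 10.99 and 37.2 CPM in SHAM and 6.34, 17.4 and 68.9 CPM in MM. For Col8a1, MM5 was again the highest library, followed by MM9 (38.4) and MM8 (31.6 CPM).

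A few libraries set the extremes of most members. MM5 was the highest MM library for 30 of the 39 tested members and MM3 the lowest for 26. SHAM6 was the highest SHAM library for 23 and SHAM8 the lowest for 22. The fibroblast marker level (mean log2 CPM of 10 markers) was highest in MM5 at 6.23, then SHAM6 at 5.89 and SHAM4 at 5.40, and lowest in MM3 at 3.65. Its group medians were 4.80 in MM and 4.52 in SHAM, and 0 of 10 fibroblast markers were called in either direction.

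Members were set against 6 marker levels after the data were seen, with group means removed, giving 234 relations over 18 libraries. For the fibroblast markers 22 of 39 members were positively and 2 (Col24a1 and Col19a1) negatively related at an adjusted permutation p under 0.05 by both measures. The counts were 23 positive and 1 negative for the endothelial markers, 22 and 1 for the Schwann cell markers, and 0 and 19 for the sensory neuron markers, so the relation was not particular to the fibroblast list. Skeletal muscle markers gave 1 positive (Col22a1), and plasma and myeloma cell markers 2 (Col20a1 and Col11a2). For both of the latter r was 0.95 within MM, while within SHAM it was 0.26 for Col20a1 and -0.30 for Col11a2. Col6a2 was closest to the fibroblast markers (r = 0.98 and rho = 0.95; adjusted permutation p = 9e-05 and 0.00016), with r = 0.96 without the extreme libraries. Col3a1 and Col1a1 each gave r = 0.94 and rho = 0.93 with the same adjusted permutation p, and r = 0.88 without the extremes. Col28a1 gave no relation past the threshold (r = 0.13 and rho = -0.02; adjusted permutation p = 0.72 and 0.95). Col19a1, a FACIT chain also known from neurons, gave r = -0.81 and rho = -0.68 (adjusted permutation p = 0.00033 and 0.010), and r = -0.64 without the extremes. It was also inverse to the endothelial (r = -0.73) and Schwann cell markers (r = -0.76). Its relation with the sensory neuron markers missed the threshold (r = 0.46 and rho = 0.29, adjusted permutation p = 0.092 and 0.37).

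Schwann cell markers were closest to Col23a1 (r = 0.97 and rho = 0.95; adjusted permutation p = 9e-05 and 0.00016; r = 0.94 without the extremes) and Col4a5 (r = 0.95 and rho = 0.93 with the same adjusted permutation p; r = 0.93 without the extremes). The marker levels moved with each other, so a relation with 1 list is no sign of 1 source. The fibroblast and endothelial levels gave r = 0.89 and rho = 0.85 (adjusted permutation p = 0.0003 and 0.0006). The fibroblast and Schwann levels gave r = 0.81 and rho = 0.77 (adjusted permutation p = 0.0009 and 0.002). These are shares of 1 total, so a rise of some transcripts lowers others in the same library, and the part of sample composition in the members' spread was not tested.

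**Figure D4:**
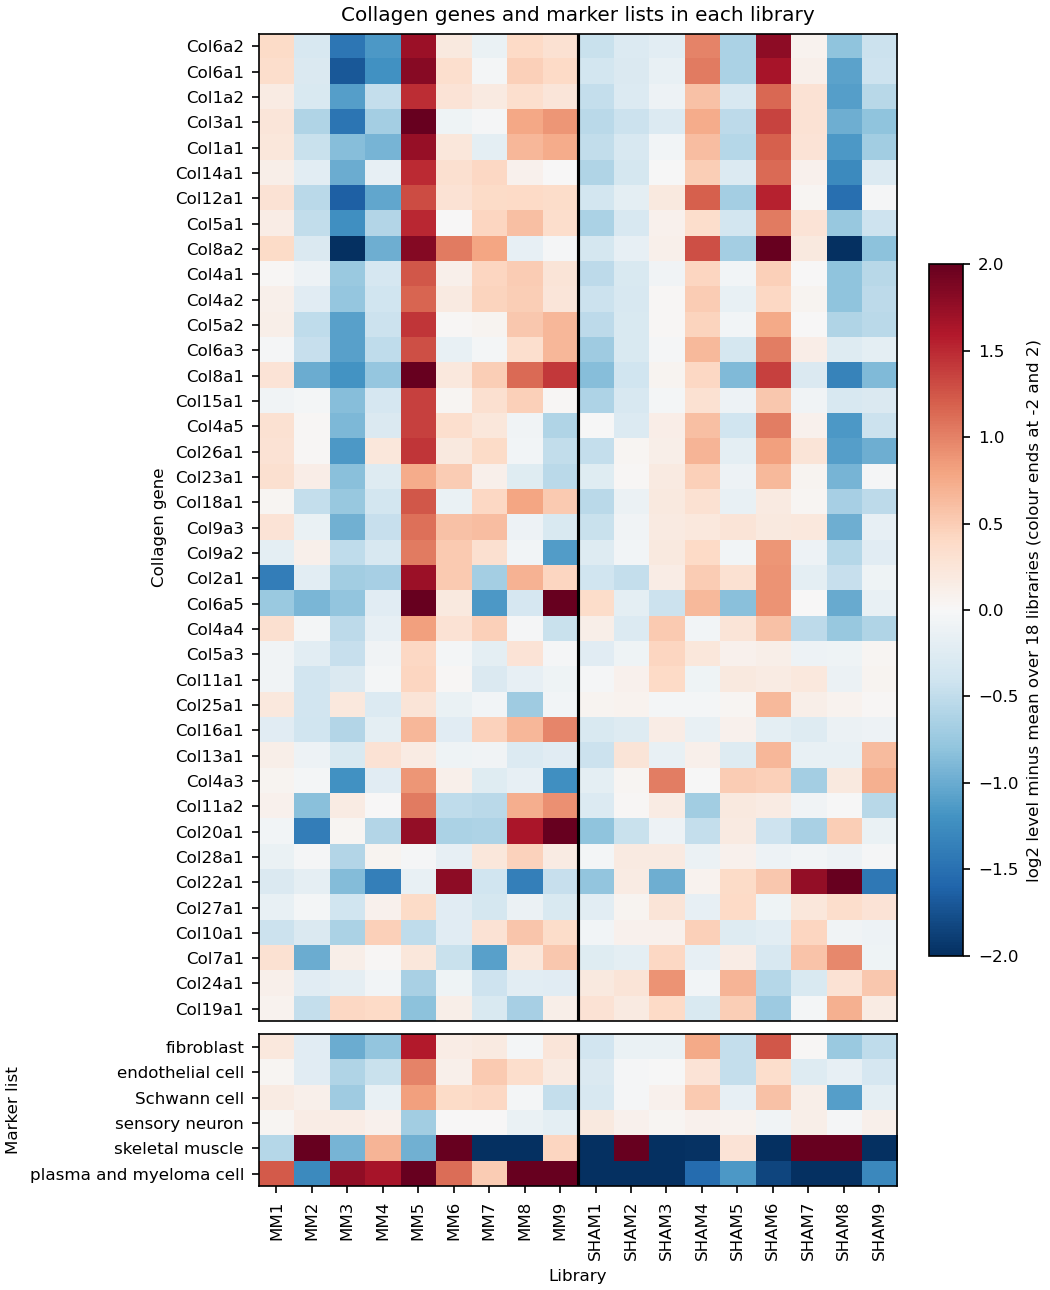
Log2 level minus its mean over 18 libraries for the 39 tested collagen genes (top, ordered by correlation with fibroblast markers) and 6 marker lists (bottom), MM left of the line and SHAM right, with colours ending at -2 and 2. MM5 and SHAM6 are high and MM3 and SHAM8 low for most genes, while Col28a1 stays pale.

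**Figure D5:**
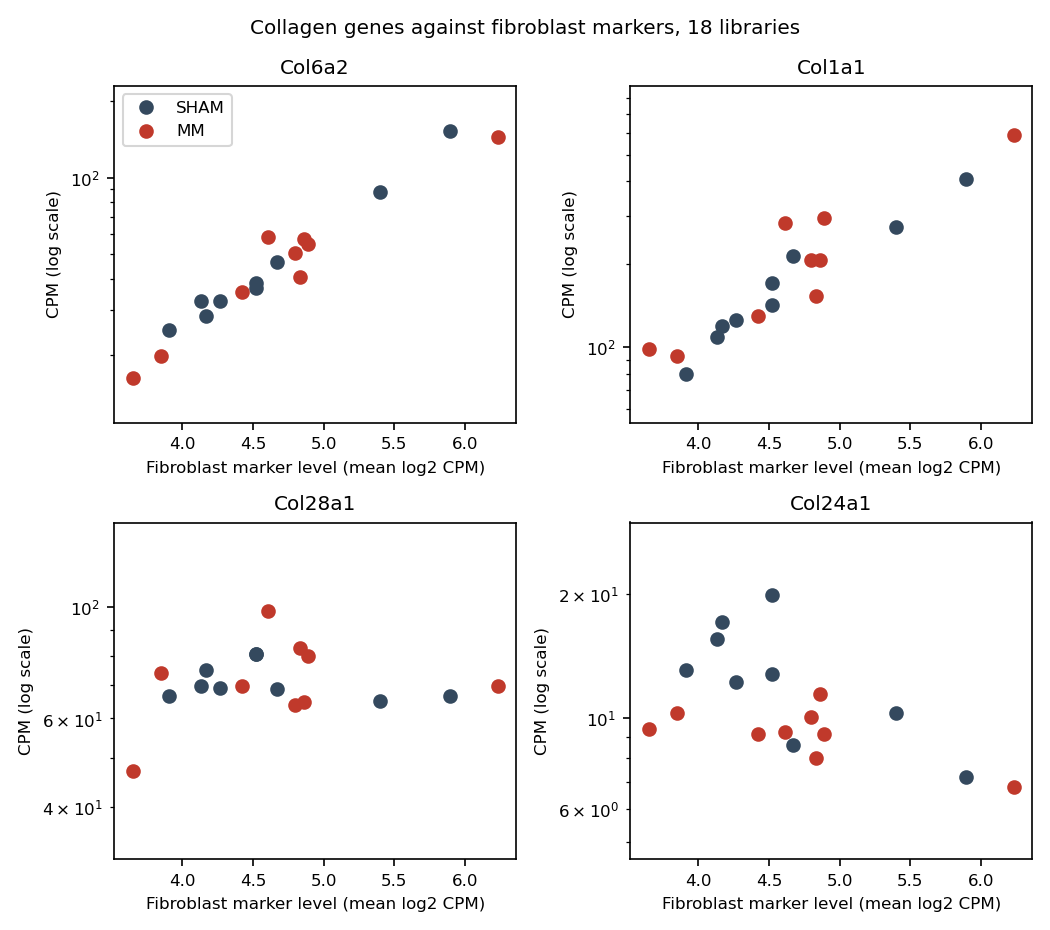
CPM (log axis) of Col6a2, Col1a1, Col28a1 and Col24a1 against the fibroblast marker level (mean log2 CPM of 10 markers), each point 1 of 18 libraries. Col6a2 (r = 0.98) and Col1a1 (r = 0.94) follow the markers, Col28a1 (r = 0.13) does not, and Col24a1 slopes down (r = -0.62, or -0.32 without the extreme libraries).

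Genes that act on collagen showed no calls either. Across 6 lists, 86 genes were tested, of which 0 were called higher and 0 lower by edgeR, with 8 higher and 5 lower at an unadjusted p under 0.05, where the background was 13.9% and 8.6% of all tested genes. DESeq2 called Tgfb1 higher and Adamts3 lower, beside 5.73% and 1.25% of its genes. For folding and modification enzymes (19 tested, median log2 fold change 0.18) the lowest p was that of P4hb, a subunit of prolyl 4-hydroxylase, at 134 ± 15.1 CPM in SHAM and 192 ± 75.7 in MM (SD, n = 9; edgeR adjusted p = 0.102). For propeptide removal and crosslinking (13 tested, median 0.16) it was Adamts3, a procollagen protease, at 9.98 ± 0.818 and 8.34 ± 1.32 CPM (edgeR adjusted p = 0.101). For receptors and uptake (9 of 10 tested, median 0.16) it was Lair1, an inhibitory collagen receptor of leukocytes, at 1.98 ± 0.414 and 3.31 ± 1.88 CPM (edgeR adjusted p = 0.110).

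For laminins and other basement membrane partners (16 tested, median 0.04) the lowest p was that of Lama3, a laminin chain, at 5.12 ± 0.756 CPM in SHAM and 4.14 ± 0.729 in MM (SD, n = 9; edgeR adjusted p = 0.141). For collagen-binding proteoglycans and fibril partners (14 tested, median 0.05) it was Fbln2, a matrix fibulin, at 99.7 ± 11.1 and 91.6 ± 9.93 CPM (edgeR adjusted p = 0.333). For the TGF-beta pathway (15 tested, median 0.06), a main inducer of collagen genes, it was Tgfb1 at 7.47 ± 2.22 and 15.9 ± 10.95 CPM (edgeR adjusted p = 0.0708). In every list MM5 and SHAM6 had the highest mean level of their groups, as for the collagens.

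Beside these, other cell types differed between the groups. Plasma and myeloma cell markers were called higher in MM for 7 of 8 tested, macrophage markers for 5 of 9, and erythroid markers were called lower for 5 of 5, while Mrgprd was the single sensory neuron marker called, lower in MM; over all tested genes 2.75% were called higher and 0.241% lower. In the other 10 marker lists (fibroblast, perineurial, endothelial, pericyte and smooth muscle, satellite glia, Schwann, skeletal muscle, adipocyte, cartilage and bone, meninges) 0 genes were called. The mean macrophage marker level was 2.74 to 5.23 in MM, highest in MM5, and 2.14 to 3.39 in SHAM. The part of these cells in the collagen levels was not tested.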

How the data were processed

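RNA of 18 ganglion samples was sequenced on DNBSEQ instruments, per the labels. Salmon 1.5.2, build GRCm39 and DESeq2 (no version) are named in the submitters' processing notes; index and options are not given in the sources used here. The deposited files hold estimated counts of reads per transcript, which the authors made with Salmon and did not scale. The deposited TPM values beside them were scaled by the authors' Salmon run by length and total. A deposited table holds a normalized signal per gene, which serves here only as an alternative.

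Estimated counts were summed per gene through GENCODE M21 (an older build, so only names were used; 3620 of 137562 transcripts had no gene) and rounded. Genes passing edgeR's filterByExpr (edgeR 4.0.16, R 4.3.3) were TMM-scaled and tested by the robust quasi-likelihood test with group as the only term. Benjamini-Hochberg adjusted p under 0.05 over 15774 genes counted as called. The fit was tested on simulated data. Intervals are 95%. Log2 CPM used a prior count of 2. Correlations used deviations from group means, with 2-sided permutation tests. The result of 1 of the 11 gene pairs is not reported here.

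Values are given for members with the 6 lowest p, the 10 highest SHAM TPM and type IV, VI and XXVIII chains; a list outside the family is named by its lowest p where none was called. Other members were described after their values were seen. Members, gene lists and marker lists were chosen with earlier results of these data known. Marker lists covered fibroblasts, perineurial, endothelial, pericyte and smooth muscle, satellite glia, Schwann, sensory neuron, macrophage, plasma and myeloma, skeletal muscle, adipocyte, cartilage and bone, meningeal and erythroid cells. Alternatives were other size factors, DESeq2 1.42.0, no filter, length offsets, no robust estimation, a replicate block, scaling without myeloma genes and left-out libraries. Leaving out MM5 with SHAM6 or SHAM7 with SHAM8, the fibroblast term, TPM without short transcripts and the relations with marker levels were added after seeing the data.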

Additional observations from a re-analysis of the deposited data

Results flagged for a closer look

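Groups of 9 libraries were checked for a lone extreme value on the log2 CPM scale, and the groups checked do not cover every tested member. A gap above Dixon's 95% critical value was held by 2 of 42 collagen groups, where chance gives about 1 in 20. The count depends on the scale: on linear CPM it was 14 of 42. Col22a1 in MM was highest in MM6 at 4.78 CPM, where the next library had 1.26 CPM, a gap of 0.628 of the range in log2 CPM. Col11a1 in MM was highest in MM5 at 26.0 CPM, where the next library had 19.7 CPM, a gap of 0.498 of the range in log2 CPM.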

How the results depend on the processing

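No collagen gene was called higher under any alternative run. The count called lower was 0 by the main test and 1 (Col24a1) with DESeq2 and with the fibroblast term, and 0 to 1 when each library was left out in turn, the 1 without SHAM6. Over all genes, 433 were called higher and 38 lower; the counts were 1132 and 247 with DESeq2, 981 and 490 with the fibroblast term, 313 and 20 without the filter, 53 and 7 without MM5, MM8 and MM9, 36 and 8 without MM5 and SHAM6, and 29 and 6 without SHAM7 and SHAM8. Leaving out each library gave 75 to 891 higher and 9 to 139 lower, and length offsets gave 67 lower. The cause of these shifts was not tested.

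Over all 39 tested members, 25 had a positive log2 fold change in the main fit and 5 without MM5, MM8 and MM9. In the main fit 48.85% of all tested genes were positive. Changes of sign are given by gene only for members with the lowest p, the highest SHAM TPM and type IV, VI and XXVIII chains. The values below thus leave out other members that changed sign. Among the members given, log2 fold changes that changed sign were those of genes with no call. Without MM5, MM8 and MM9 they were -0.255 for Col20a1, -0.036 for Col16a1, -0.205 for Col1a2, -0.413 for Col3a1, -0.303 for Col1a1, -0.088 for Col28a1, -0.055 for Col15a1, -0.484 for Col6a1, -0.431 for Col6a3, -0.075 for Col4a5 and -0.580 for Col6a5. Without SHAM7 and SHAM8 they were 0.105 for Col22a1, -0.005 for Col28a1, -0.047 for Col6a1 and -0.010 for Col4a5. The fibroblast term gave -0.040 for Col6a1 and -0.042 for Col6a3, leaving out MM5 and SHAM6 gave 0.020 for Col6a2, and length offsets gave -0.072 for Col6a5. With each library left out in turn the ranges were -0.363 to 0.369 for Col6a2, -0.276 to 0.430 for Col6a1, -0.168 to 0.239 for Col6a3, -0.047 to 0.079 for Col28a1, -0.081 to 0.407 for Col1a2, -0.020 to 0.700 for Col3a1 and -0.145 to 0.284 for Col4a5. The deposited signal gave log2 ratios of group means of 0.556 for Col16a1 (0.346 from CPM) and -0.218 for Col6a5 (0.700 from CPM), and had the same sign as CPM for 33 of 39 members. The cause was not tested.

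Replicate numbers are shared by the groups, and the labels do not say whether they pair the mice. Same-numbered libraries correlated at -0.32 to 0.263, and 2 of 9 correlated best with their own number. Such correlations cannot show whether mice were paired or handled together. With the replicate block 7 genes were called higher and 1 lower over all genes, 0 of them collagens, and Col28a1 was at -0.001. Read depth limits the scarce members: Col10a1 had 9 to 20 reads per library and the 5 untested members 25 or fewer.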
